A study of Rattus norvegicus with 20 samples.

Results

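The genes described here encode the constitutive proteasome, the enzyme complex that degrades ubiquitin-tagged proteins in every cell. They were measured in olfactory and respiratory epithelium of the nose of untreated rats. A gene entered if a probe set with 1 annotated symbol began with Psma, Psmb, Psmc, Psmd, Psme or Psmg and a digit, other than the immunoproteasome genes Psmb8, Psmb9 and Psmb10. This gave 42 of the 14217 named genes, from 56 of 31042 probe sets, and each gene stands for its brightest probe set. They were 7 genes of the 20S alpha ring, 6 of the 20S beta ring, 6 ATPases and 11 other subunits of the 19S particle, 3 activators and 7 assembly chaperones. The rule also took Psmc3ip and Psme3ip1, which are named for binding a proteasome protein and are not subunits. Psmb6 and Psme3 are represented only by probe sets that also match other genes, and were left out.

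The 20S core is a barrel of stacked rings. The outer alpha rings gate the entry, and the beta rings hold the proteolytic sites of Psmb5, Psmb6 and Psmb7. The 19S particle binds the barrel's ends, where its ATPases unfold substrates and its other subunits recognise ubiquitin and remove it. The activators can take the place of the 19S particle without using ATP: Psme1 and Psme2 form PA28, which interferon induces and which is linked to antigen processing, and Psme4 is PA200. In interferon-exposed cells and in leukocytes, Psmb8, Psmb9 and Psmb10 replace the constitutive Psmb5, Psmb6 and Psmb7, giving the immunoproteasome. In the nose the olfactory epithelium is a neuroepithelium of sensory neurons and their supporting cells, and the respiratory epithelium is made mainly of ciliated, secretory and basal cells.

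The rats were adult Sprague-Dawley animals, all untreated, aged 11 to 14 weeks. The tissue came from the nasal passages and turbinates and was kept in RNA Later, and each array (Affymetrix Rat230_2) held the RNA of 1 tissue of 1 animal. Of the arrays from males, 6 held olfactory and 6 respiratory tissue, and of those from females 2 and 6. They came from 13 rats, and 7 of these gave both tissues. Values are log2 of the deposited signal plus 16, and a change is a difference of group means on that scale. Markers of mature olfactory neurons went with the labels: 6 of 6 genes, among them Omp, were called higher in male olfactory tissue, with a median change of 4.01. Their log2 summed signal was 15.94 to 16.14 there, and on respiratory arrays 11.17 to 13.53 in males and 11.82 to 14.58 in females. The part of that spread in the tissue changes was not tested. Summed signals overlapped between male olfactory and respiratory arrays for ciliated cells (11.5 to 12.18 against 11.61 to 12.65). They also overlapped for goblet and secretory cells (13.27 to 14.52 against 13.88 to 15.53), and did not for basal cells. These are bulk samples, so fewer cells of a type and less RNA per cell cannot be told apart. RNA integrity numbers did not overlap between the tissues of males, at 8.2 to 8.8 on 5 olfactory and 9.1 to 9.3 on 4 respiratory arrays. In females they were 8.3 on both olfactory arrays and 8.7 to 9.3 on the respiratory arrays. Tissue and RNA integrity therefore cannot be told apart here. A call kept or lost with integrity as a covariate does not separate them. Female respiratory 8 and male respiratory 7 stood apart from the other respiratory arrays on the second principal component, which carried 15.85% of the variance. The main results that rest on them are given with and without them.

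The sequences of the 250 bases before the annotated gene start were taken for 38 of the 42 genes from RefSeq (build GRCr8); Psma7, Psmd6, Psmd12 and Psmd14 had no entry matched. The 5 shown belong to the genes called between the tissues in males, or that form a complex with one of them. Capitals mark every match, on either strand, to TGACNNNGC (the antioxidant response element core, a site of NRF1 and NRF2), CCAAT (the NF-Y box) or the core of the interferon-stimulated response element (GAAA, any 2 bases, GAAA; added after the data were seen).
Psmb7, chr3:42827471-42827720, strand -: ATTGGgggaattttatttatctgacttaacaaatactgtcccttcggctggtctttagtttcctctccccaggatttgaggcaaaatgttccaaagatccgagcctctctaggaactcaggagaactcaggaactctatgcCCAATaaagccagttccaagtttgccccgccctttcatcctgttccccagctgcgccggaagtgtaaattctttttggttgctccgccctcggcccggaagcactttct
Psmd8, chr1:93608690-93608939, strand -: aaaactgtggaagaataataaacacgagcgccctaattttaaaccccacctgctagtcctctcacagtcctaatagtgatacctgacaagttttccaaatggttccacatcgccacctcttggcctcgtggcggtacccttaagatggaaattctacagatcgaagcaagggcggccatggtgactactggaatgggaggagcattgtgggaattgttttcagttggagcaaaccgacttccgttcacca
Psme1, chr15:33038721-33038970, strand +: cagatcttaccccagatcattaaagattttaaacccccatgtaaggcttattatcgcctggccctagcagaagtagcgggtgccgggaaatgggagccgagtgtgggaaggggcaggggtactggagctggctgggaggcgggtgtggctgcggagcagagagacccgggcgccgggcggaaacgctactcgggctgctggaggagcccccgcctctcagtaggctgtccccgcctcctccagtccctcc
Psme2, chr15:33052752-33053001, strand -: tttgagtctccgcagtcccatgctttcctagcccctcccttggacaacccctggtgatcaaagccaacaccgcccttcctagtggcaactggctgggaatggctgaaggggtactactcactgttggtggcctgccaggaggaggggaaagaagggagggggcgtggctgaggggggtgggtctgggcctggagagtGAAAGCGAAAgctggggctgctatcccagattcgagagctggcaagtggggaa
Psme4, chr14:108706393-108706642, strand +: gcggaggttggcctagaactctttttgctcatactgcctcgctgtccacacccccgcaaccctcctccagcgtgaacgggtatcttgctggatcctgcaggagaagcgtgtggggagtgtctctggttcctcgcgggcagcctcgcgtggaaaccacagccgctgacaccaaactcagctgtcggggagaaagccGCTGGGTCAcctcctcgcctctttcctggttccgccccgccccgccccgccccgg
Psmb7 held CCAAT 2 times, starting 250 and 109 bases before the gene start. Psme2 held the interferon element core 53 bases before the start, Psme4 held TGACNNNGC on the opposite strand 55 bases before it, and Psmd8 and Psme1 held none of the 3. CCAAT was found in 19 of the 38 genes, against 34.0% of all 33469 promoters of the table cut to the same length. It was in 5 of 6 alpha-ring and 4 of 6 beta-ring genes and in 0 of 3 activators. TGACNNNGC was found in 6 genes, 15.8% against 10.1% of all, and these were Psma3, Psmb2, Psmb5, Psmd1, Psmd9 and Psme4. The interferon element core was found in 4, 10.5% against 3.41%, namely Psma4, Psmb3, Psmd7 and Psme2. The motifs do not overlap one another in the sequences shown. These matches describe letters in a window and are not evidence of binding.

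The first comparison asks how proteasome transcripts differ between olfactory and respiratory epithelium in males. Few of them changed. Psmb7 and Psmd8 rose in olfactory tissue, by 1.62-fold and 1.64-fold, and the activators Psme1 and Psme4 fell, by 2.28-fold and 2.16-fold. These were 4 of 42 genes (9.52%), where 25.2% of all probe sets and 36.5% of 5520 other named genes in the same range of brightness were called at an adjusted p under 0.05. Over all probe sets 11.6% were called higher and 13.6% lower. The median change over the 42 genes was 0.17, with 30 of 42 above 0, against a median of -0.05 over all named genes. For 30 of the 38 genes not called, the 95% interval of the change lay within 1 on the log2 scale, a 2-fold difference, in either direction. Of the 42 genes, 10 had an unadjusted p under 0.05, beside 35.2% of all probe sets. In 1 gene all olfactory arrays lay above all respiratory arrays (Psma3) and in 1 all lay below (Psme1), where 6.17% of all probe sets lay apart above and 7.19% apart below, 13.4% in all.

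**Figure D1:**
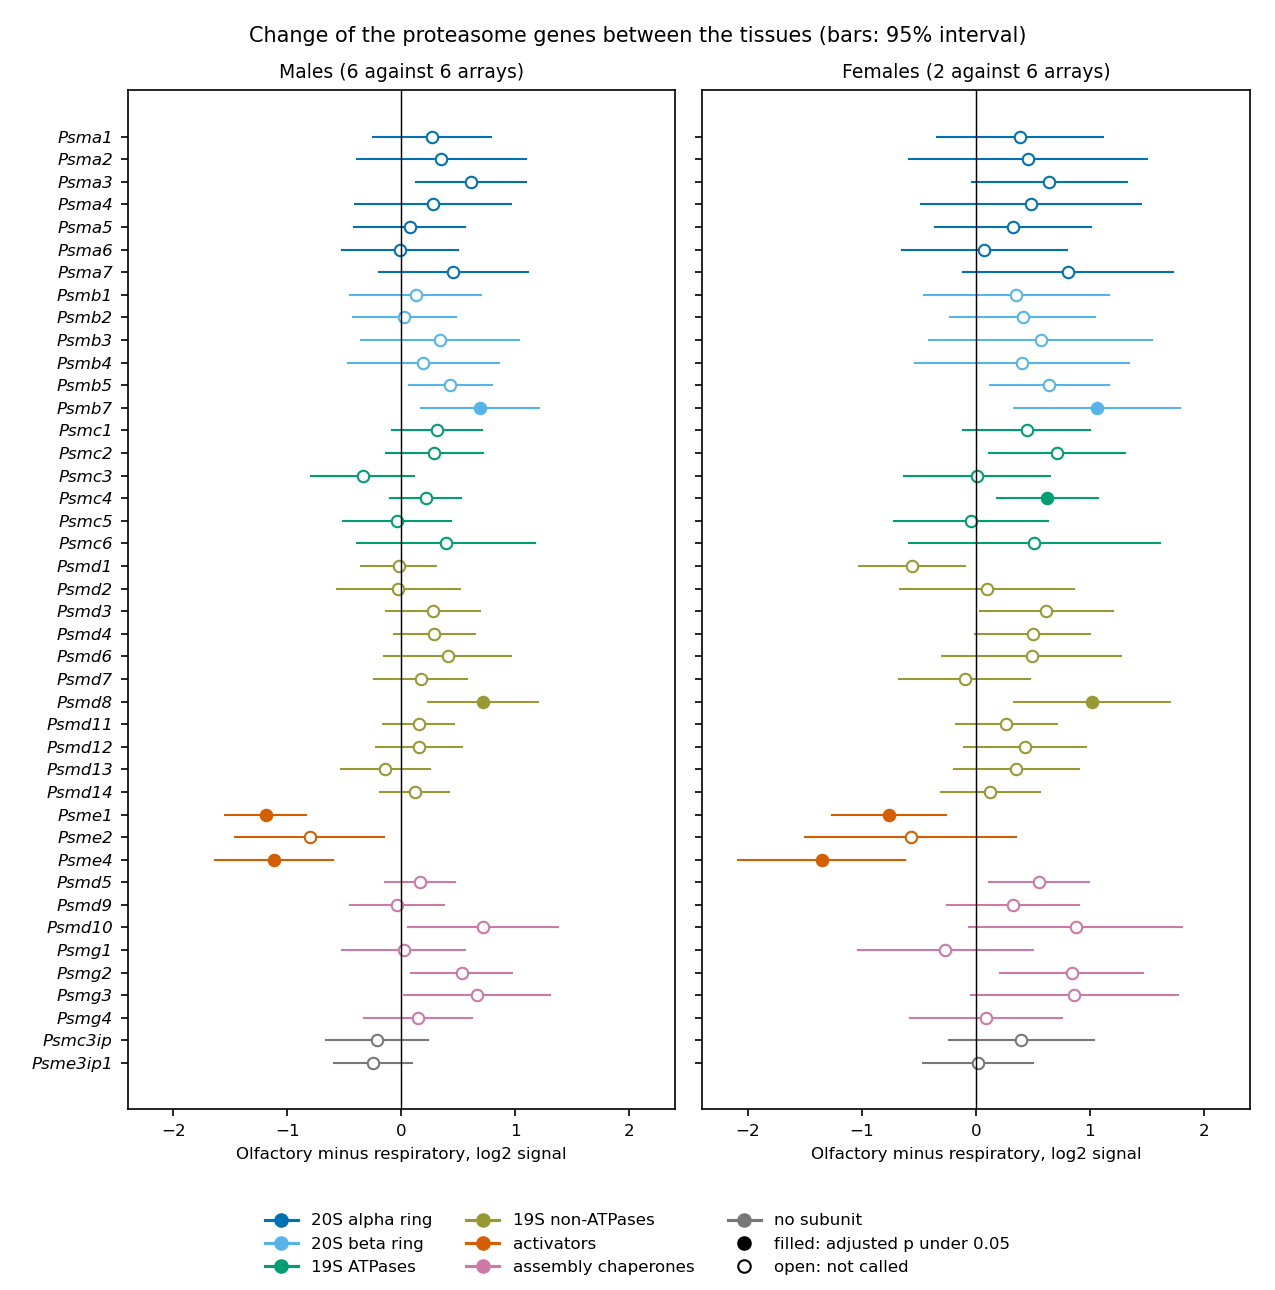
Change of each proteasome gene between the tissues (x axis, olfactory minus respiratory, log2 signal), by role, in males and females; points are differences of group means and bars their 95% intervals, filled where the adjusted p was under 0.05. In males the core and 19S genes lay between -0.34 and 0.72, and the 3 activators between -1.19 and -0.80.

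The activators were the role with the largest changes, with a median of -1.11 and 3 of 3 below 0. Psme1, the alpha subunit of PA28, ran from 11.45 through a median of 11.80 to 12.41 on the male olfactory arrays. On the male respiratory arrays it ran from 12.74 through 12.98 to 13.47. The groups did not overlap, and the olfactory array was the lower one in 5 of 5 males with both tissues. The change was -1.19 (SE 0.17, 95% interval -1.54 to -0.83, limma's adjusted p = 1.3e-05). It was the only call in males that remained with RNA integrity as a covariate, at -1.52 (adjusted p = 0.00319), a fit that leaves out the 3 arrays with no such number. A dimmer probe set of Psme1, above background on 11 of 20 arrays, went the other way in males (1.33, SE 0.39, adjusted p = 0.0143). The direction given for Psme1 is that of its bright probe set.

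Psme2, the beta subunit of PA28, followed with a smaller change that did not pass. Its male olfactory values ran from 10.32 through 11.14 to 11.60, and the respiratory values from 11.31 through 11.73 to 12.53. Both groups overlapped between 11.31 and 11.60, and the olfactory array was lower in 5 of 5 pairs. The change was -0.80 (SE 0.32, interval -1.46 to -0.15, adjusted p = 0.0673). With the animal as a fixed replicate block it was -0.97 (adjusted p = 0.0488), and without the 2 arrays that stood apart -0.66 (adjusted p = 0.0315), both of which are calls. Psme2 was called lower in 6 of 17 settings, these 2 among them, and also without female respiratory 8 or without male olfactory 10.

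Psme4, the subunit of PA200, ran from 9.18 through 9.91 to 10.35 on the male olfactory arrays. On the respiratory arrays it ran from 9.83 through 11.20 to 11.51. The groups overlapped only through male respiratory 7, the array at 9.83, as the next respiratory value was 10.83. The change was -1.11 (SE 0.25, interval -1.63 to -0.60, adjusted p = 0.00168), and without the 2 arrays that stood apart it was -1.34 (adjusted p = 2.08e-05). With RNA integrity as a covariate it was -0.63 (adjusted p = 0.245), so the call was lost. Of its other 2 probe sets, one also fell in males (-1.51, adjusted p = 0.00116), and for the other the 95% interval of the change was -0.53 to 0.53.

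In the beta ring, 1 of 6 genes rose and all 6 had a positive change, with a median of 0.27. Psmb7, which carries the trypsin-like site, ran from 12.21 through 12.78 to 13.38 on the male olfactory arrays. Its respiratory values ran from 11.76 through 11.92 to 12.95. A single respiratory array, male respiratory 7, lay inside the olfactory range: the next was at 12.10, below all olfactory values. The change was 0.69 (SE 0.25, interval 0.18 to 1.21, adjusted p = 0.0437), and it was 0.87 (adjusted p = 0.000925) without the 2 arrays that stood apart. The call ended in rats aged 11 weeks (0.46), with the animal as a fixed replicate block (0.53, adjusted p = 0.239) and with RNA integrity as a covariate (0.24, adjusted p = 0.799). Fewer arrays entered at 11 weeks, and the part of this in the lost call was not tested. With arrays centred on their medians and without the variance trend the call ended too, which makes 5 of 17 settings. It also ended without any 1 of 12 arrays (male olfactory 1, 4, 7 or 10, male respiratory 1, 2, 3, 4 or 8, or female respiratory 3, 4 or 9), with values between 0.57 and 0.87 and an adjusted p of up to 0.105 over all arrays left out in turn.

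Psmb5, which carries the chymotrypsin-like site, ran from 12.54 through 13.06 to 13.32 in male olfactory tissue and from 12.17 through 12.51 to 13.07 in respiratory tissue. Its change of 0.43 (SE 0.18, interval 0.06 to 0.80) did not pass, with an adjusted p of 0.0796. Its other 2 probe sets were dim and pointed the other way without a call (-0.38 and -0.37). Psmb3 and Psmb4, non-catalytic members of the ring, had changes of 0.34 and 0.19 with intervals that included 0.

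In the alpha ring, 0 of 7 genes were called and 6 of 7 changes were above 0, with a median of 0.28. Psma3 came closest. Its male olfactory values, from 10.72 through 11.07 to 11.75, all lay above the respiratory values, from 10.33 through 10.58 to 10.72. The groups were apart by less than the last digit printed, and the change was 0.61 (SE 0.23, interval 0.13 to 1.09, adjusted p = 0.0577). Psma7, Psma2 and Psma4 had changes of 0.46, 0.35 and 0.28 with adjusted p-values of 0.325, 0.531 and 0.603.

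Among the 19S ATPases 0 of 6 were called, and 4 of 6 changes were above 0. The largest were 0.39 for Psmc6, -0.34 for Psmc3, 0.32 for Psmc1 and 0.29 for Psmc2, with adjusted p-values from 0.254 to 0.503. Psmc6 has 3 probe sets, and its dimmest, detected on all 20 arrays, rose by 1.44 (SE 0.34, adjusted p = 0.00248), so the gene's own probe sets disagree in size. Among the 11 other 19S subunits only Psmd8, a structural subunit of the lid, was called. It ran from 11.53 through 12.24 to 12.71 on the male olfactory arrays and from 11.18 through 11.27 to 12.24 on the respiratory arrays. Male respiratory 7 was again the one respiratory array inside the olfactory range, the next being at 11.39. The change was 0.72 (SE 0.23, interval 0.23 to 1.20, adjusted p = 0.0255), and without the 2 arrays that stood apart it was 0.88 (adjusted p = 0.00112). It lost its call in rats aged 11 weeks (0.39, adjusted p = 0.074), with the fixed replicate block (0.56, adjusted p = 0.117) and with the RNA integrity number (0.15, adjusted p = 0.862). Without male olfactory 4, 7 or 10 or male respiratory 2, 4 or 8 it was not called either, with values from 0.60 to 0.88 and an adjusted p of up to 0.0649 over all arrays left out in turn.

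No other gene of the 19S particle was called. Psmd6, Psmd4 and Psmd3 had changes of 0.41, 0.29 and 0.28, and Psmd4, a ubiquitin receptor, was higher in olfactory tissue in 5 of 5 pairs without passing the test (adjusted p = 0.241). Psmd14, the deubiquitinase of the lid, had a change of 0.12 (interval -0.19 to 0.42), and Psmd2, a large scaffold subunit of the base, one of -0.03 (interval -0.57 to 0.51). Psmd14 and Psmd2 were singled out after their values were seen.

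Of the assembly chaperones 0 of 7 were called, and 6 of 7 changes were above 0. Psmd10 (gankyrin, which helps to assemble the 19S base) was the largest at 0.72 (SE 0.32, adjusted p = 0.107). Its male olfactory values ran from 10.45 through 10.65 to 12.22, and its respiratory values from 9.77 through 10.28 to 10.71. The chaperones of the 20S core followed: Psmg3 at 0.67 (adjusted p = 0.126), Psmg2 at 0.53 (adjusted p = 0.0722), Psmg4 at 0.15 and Psmg1 at 0.02. Psmg1 and Psmg2 form 1 dimer, and their intervals were -0.52 to 0.56 and 0.09 to 0.97. Psmd5, a chaperone of the base, was at 0.16. Psmc3ip, no subunit, had means of 9.29 in respiratory and 9.08 in olfactory tissue, a difference of -0.21 (SE 0.22), and for Psme3ip1 the difference was -0.25 (SE 0.16).

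**Figure D2:**
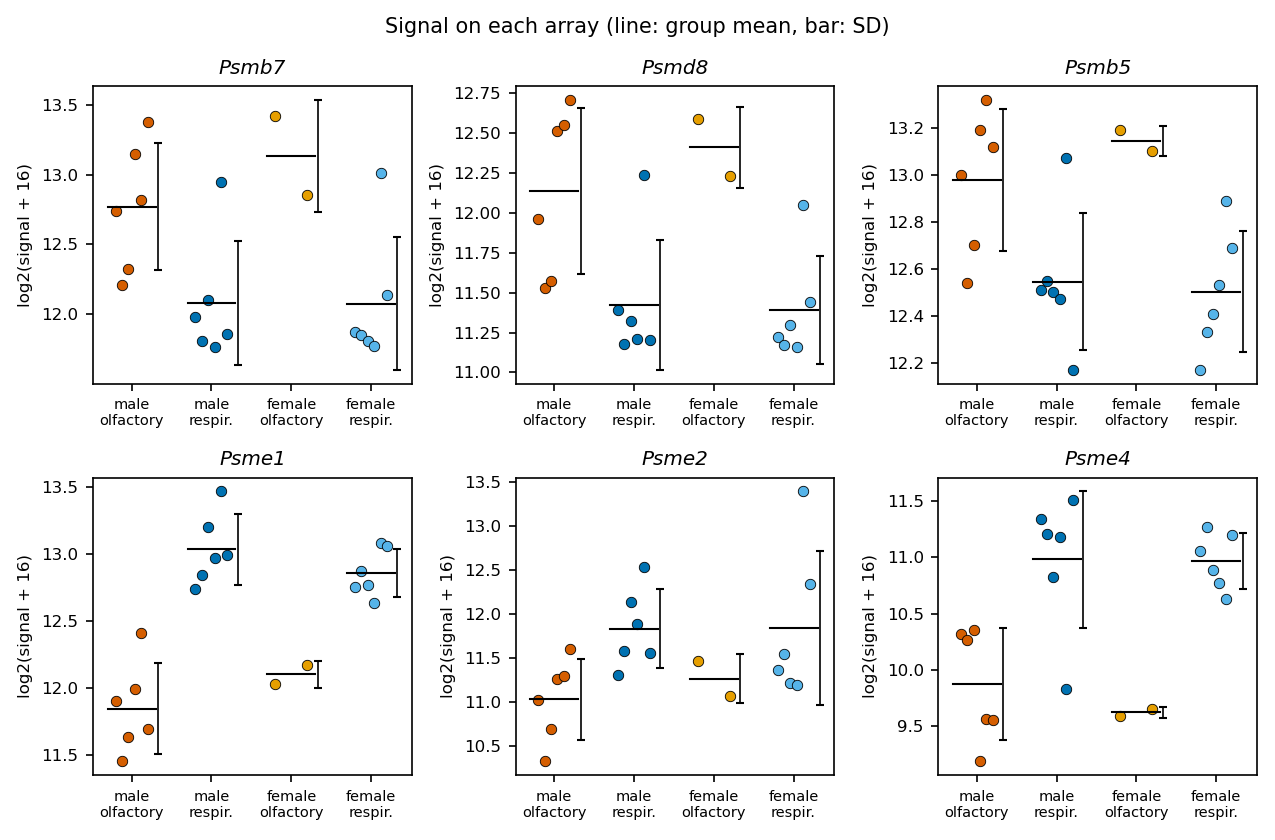
Signal of 6 genes on each array (y axis, log2 of signal plus 16), by group; lines are group means and bars the SD. Psme1 did not overlap between the tissues of either sex, and for Psmb7 in both sexes and for Psmd8 in males a single respiratory array lay inside the olfactory range.

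The 20S core genes moved together from array to array. Female respiratory 8 had the highest value of its 6 arrays for 26 of the 42 genes and the lowest for 12. For other named genes of like brightness the shares were 29.7% highest and 47.7% lowest. Against the mean of the other 5 arrays, all 13 core genes were higher there, by 0.46 (Psmb5) to 2.20 (Psma2) with a median of 1.48. The 19S genes went both ways on that array: 6 of 17 were higher, with Psmc6 at 2.61 and Psmd6 at 1.54, and 11 of 17 were lower, with Psmd2 at -1.12, Psmd13 at -1.09 and Psmc5 at -1.04. Among the chaperones Psmg3 was at 2.01 and Psmg1 at -1.09. The genes named here were chosen after their values were seen.

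Male respiratory 7 shared part of this. It was the highest of its 6 arrays for 26 genes and the lowest for 8, where 42.8% and 38.7% of named genes of like brightness were highest and lowest. The 13 core genes were again all higher than the mean of the other 5 arrays, by 0.0019 (Psma6) to 1.25 (Psmb4) with a median of 0.63. The beta ring was further away, with a median of 0.90, than the alpha ring, with a median of 0.19, and Psma3, Psma1 and Psma5 were at 0.09, 0.17 and 0.19. Psmc5 (-0.62), Psmg1 (-0.70), Psmc1 (-0.86) and Psme4 (-1.38) were lower. Over both arrays, 33 of 42 genes lay on the same side of their group. Of the 19S genes 4 of 17 were higher on both and 4 of 17 lower on both. Psmc3, Psmd3, Psmd13 and Psmc4 were lower on female respiratory 8 (-0.90, -0.47, -1.09 and -0.18) and higher on male respiratory 7 (0.28, 0.64, 0.22 and 0.50). Male olfactory 10 had the same arrangement, with 13 of 13 core genes higher than the mean of the other male olfactory arrays (median 0.92). Psmg1 (-1.44), Psmd2 (-1.37), Psmc5 (-1.22) and Psmc3 (-1.16) were lower there. Male olfactory 10 was the highest of its group for 24 of the 42 genes and the lowest for 8. Of named genes of like brightness 30.4% were highest and 32.7% lowest there. The lower genes named here were chosen after their values were seen. Core genes often lay on 1 side together. All 13 did so on 11 of the 20 arrays, 5 above and 6 below the mean of the other arrays of the group. The female olfactory arrays are compared only with each other, so they enter this count on opposite sides for the same difference. No such count was made for genes outside the proteasome. The medians furthest from 0 after female respiratory 8 and male olfactory 10 were -0.68 on male olfactory 2 and 0.63 on male respiratory 7, and an array far to one side places the others of its group on the other side.

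**Figure D3:**
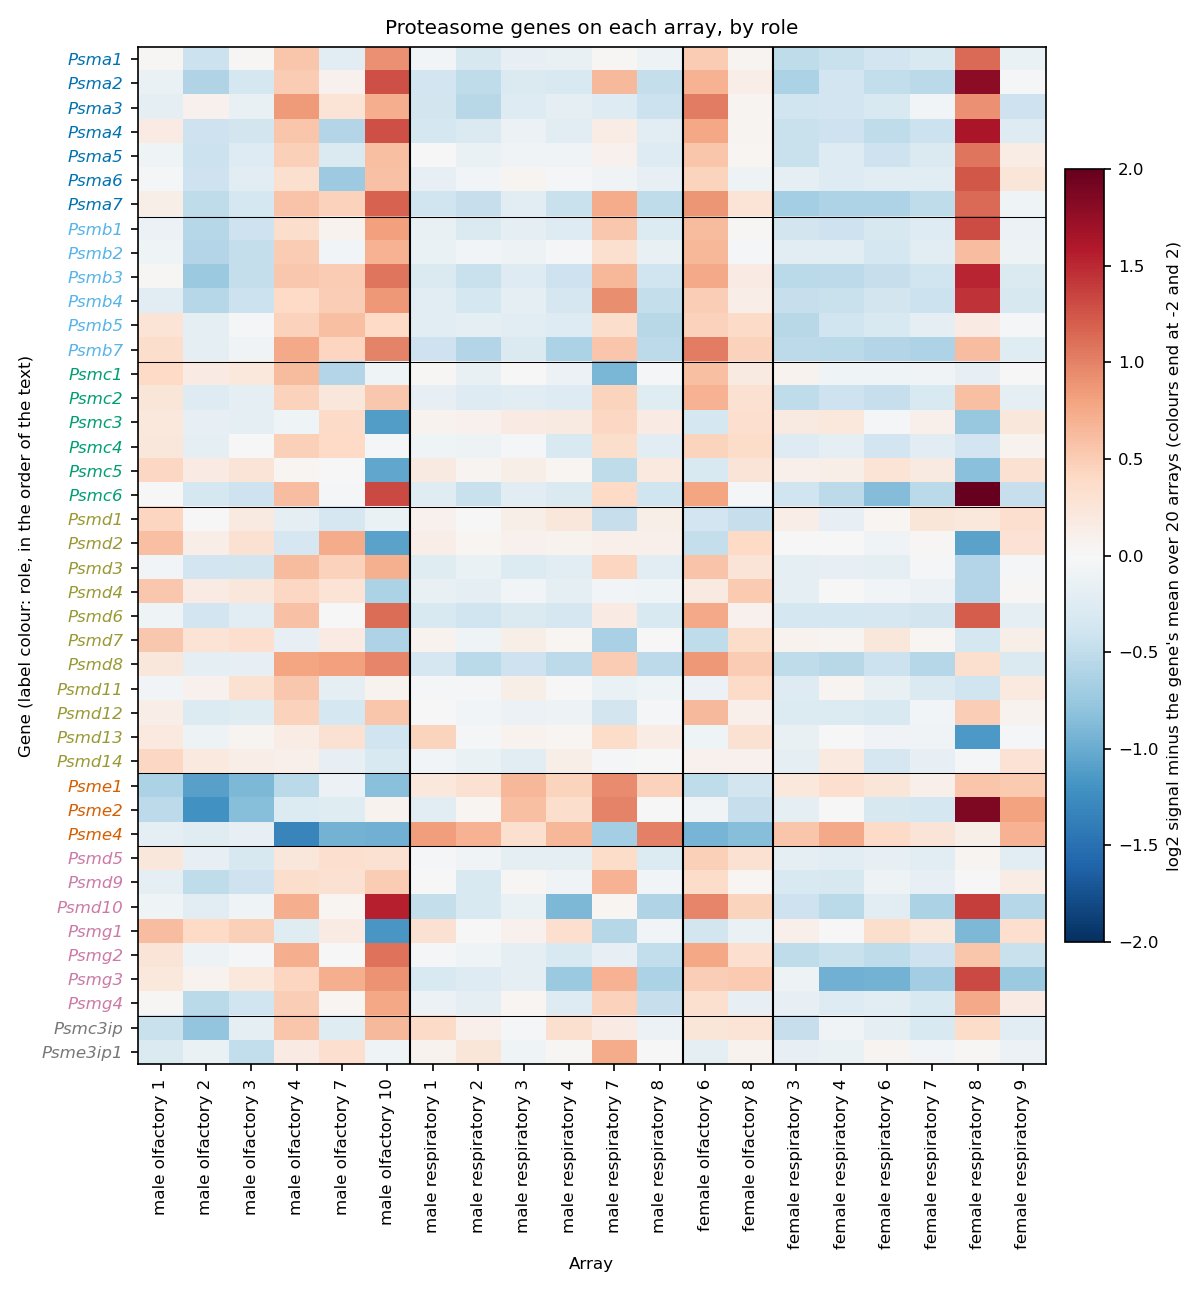
Signal of each proteasome gene (rows, ordered by role) on each of the 20 arrays (columns, by group), as log2 signal minus the gene's mean over all arrays; red is higher and blue lower. Female respiratory 8 and male olfactory 10 are red over the 20S rows and blue at Psmc3, Psmc5, Psmd2 and Psmg1.

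**Figure D4:**
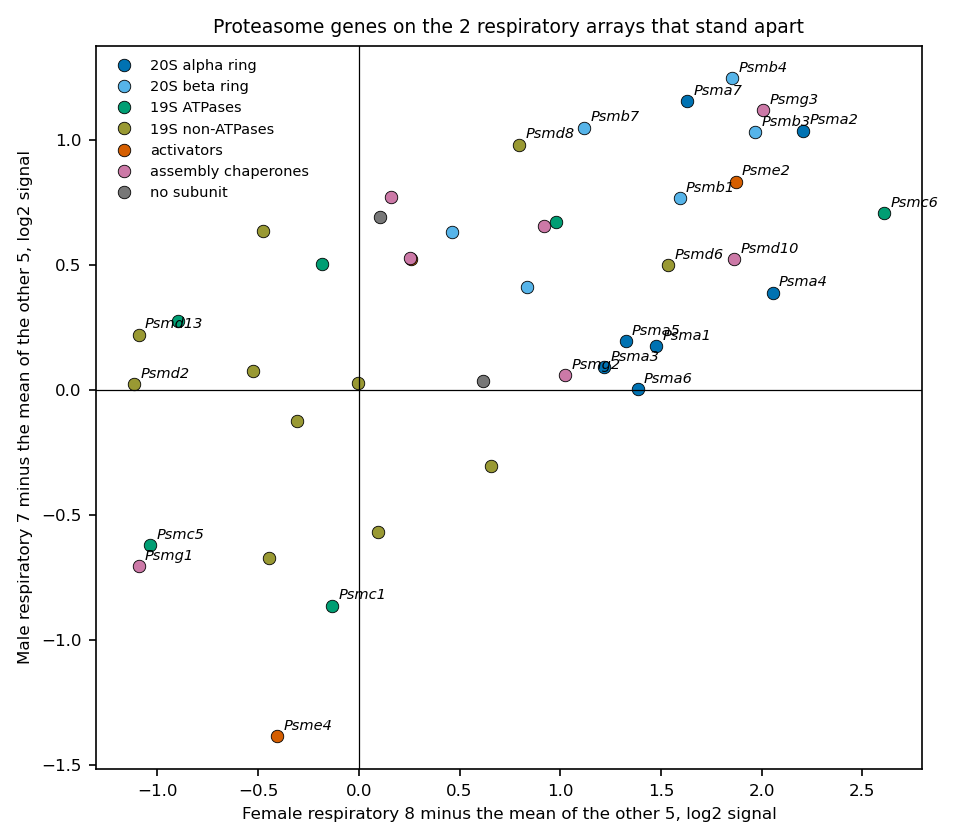
Each proteasome gene on the 2 respiratory arrays that stood apart, as the difference from the mean of the other 5 arrays of the group (log2 signal; female respiratory 8 on the x axis, male respiratory 7 on the y axis), coloured by role. All 13 core genes lie to the upper right of 0, and Psmc5, Psmc1, Psmg1 and Psme4 to the lower left.

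Other measures moved on these arrays too. Female respiratory 8 had the highest 3′ to 5′ log2 ratios of the 20 arrays for both control transcripts, at 0.74 for GAPDH and 1.69 for beta-actin, and a median signal of 143, the lowest of its group. Male respiratory 7 had the highest GAPDH ratio of its group (0.40), an actin ratio of 0.82 inside the group's range, and a median signal of 150.3, the lowest of its group. The RNA integrity number of female respiratory 8 was 8.7, the lowest value of its group and shared with female respiratory 7. Male respiratory 7 had no such number. Male olfactory 10 had ratios inside its group's range (0.20 and 1.35), a median signal of 138.7, the lowest of its group, and the highest value of the olfactory arrays on the second principal component (68.1, against 113.3 and 97.5 for the 2 respiratory arrays). The part of RNA quality and of these array differences in the proteasome values was not tested. All 3 arrays came from rats aged 14 weeks, as did 4 other arrays.

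Leaving out female respiratory 8 and male respiratory 7, an alternative chosen after seeing the data, raised the calls in males from 2 higher and 2 lower to 9 higher and 3 lower of 42, while 31.9% of all probe sets were called. The added genes were Psma3, Psma7, Psmb5, Psmc2, Psmd10, Psmg2 and Psmg3 above, and Psme2 below. The median change of the 42 genes was then 0.25 in place of 0.17. All 13 core genes lay above the mean of the other arrays of the group on both arrays. Leaving out male respiratory 7 therefore had to raise the core genes' changes in males, though for Psma6 only from -0.0094 to -0.0091. Female respiratory 8 does not enter the means of the male groups. Without female respiratory 8 alone the median in males stayed at 0.17, and 6 genes were called higher and 3 lower. Male olfactory 10, where the core genes were high as well, was kept. Without that array instead, males had 1 gene higher (Psmd4) and 3 lower, and neither Psmb7 nor Psmd8 was called. With RNA integrity as a covariate 0 were higher and 1 lower, 7.56% of all probe sets were called, and the median over the 42 genes turned to -0.22. The same 17 arrays without the covariate had 23.2% of all probe sets called.

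In females, with 2 olfactory arrays, the same comparison gave 3 genes higher and 2 lower of 42 (11.9%), against 17.9% of all probe sets (7.64% higher and 10.3% lower) and 28.4% of named genes of like brightness. An unadjusted p under 0.05 was found for 11 of 42, beside 31.1% of all probe sets. Of the 42 genes 7 lay apart above and 3 apart below, where 13.7% and 16.5% of all probe sets did, 30.3% in all. The median change was 0.41, with 35 of 42 above 0. Psmb7 and Psmd8 rose here too. Psmb7 was at 12.85 and 13.42 on the olfactory arrays and ran from 11.77 through 11.86 to 13.01 on the respiratory arrays, a change of 1.06 (SE 0.35, adjusted p = 0.0388). Female respiratory 8 was its only respiratory array inside the olfactory range, and the olfactory array was higher in 1 of 2 females with both tissues. Psmd8 was at 12.23 and 12.59 against 11.16 through 11.26 to 12.05, with no overlap, a change of 1.02 (SE 0.33, adjusted p = 0.0337). Without the 2 arrays that stood apart Psmb7 was at 1.25 (adjusted p = 0.00102), Psmd8 at 1.15 (adjusted p = 0.00261) and the median of the 42 genes at 0.54.

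The activators Psme1 and Psme4 fell in females as well. Psme1 was at 12.03 and 12.17 on the olfactory arrays and at 12.63 through 12.82 to 13.08 on the respiratory arrays, a change of -0.76 (SE 0.24, adjusted p = 0.0309). Psme4 was at 9.58 and 9.65 against 10.63 through 10.97 to 11.27, a change of -1.35 (SE 0.35, adjusted p = 0.00963). Neither gene's groups overlapped. Psme2 had a change of -0.57 (interval -1.50 to 0.35), with female respiratory 8 at 13.40 above every other array. Its other respiratory arrays lay between 11.19 and 12.34, and its olfactory arrays at 11.07 and 11.46. Without the 2 arrays that stood apart its change was -0.26 (adjusted p = 0.596), and those of Psme1 and Psme4 were -0.72 and -1.42.

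Psmc4, an ATPase of the 19S base, was the third gene to rise in females, and it is named because it was called there. It was at 12.06 and 12.14 on the olfactory arrays and ran from 11.32 through 11.46 to 11.77 on the respiratory arrays, a change of 0.62 (SE 0.21, adjusted p = 0.0457). In males its change was 0.22 (interval -0.10 to 0.53). None of the 5 calls in females held with the animal as a fixed replicate block or with RNA integrity as a covariate, and the adjusted p-values then lay between 0.0952 and 0.372 for the block and between 0.0612 and 0.739 for the integrity number. Leaving out either olfactory array of females, 6 or 8, also ended all 5 calls; the lone olfactory array is then assumed to vary like the other groups. None of the 3 higher genes was called without female respiratory 3, 4, 6 or 7, and Psme1 and Psmb7 were not called without female respiratory 9. Psmc4 was also not called without male olfactory 1 or 3 or male respiratory 1, 2, 3, 4 or 8, and its value with each array left out lay between 0.58 and 0.68. Psmd8 lay between 0.84 and 1.20, Psmb7 between 0.78 and 1.35, Psme1 between -0.83 and -0.70 and Psme4 between -1.42 and -1.29. Without the 2 arrays that stood apart there were 13 higher and 3 lower, while 27.3% of all probe sets were called.

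No difference between the sexes in the tissue change passed the test: 0 of 42 genes were called by limma, 0 had an unadjusted p under 0.05, 0.0% of all probe sets were called, and 4.88% had an unadjusted p under 0.05. The differences ran from -0.54 to 0.61, and for only 14 of 42 genes did the 95% interval stay within 1. Between females and males in respiratory tissue 0 of 42 were called and 1 had an unadjusted p under 0.05, where 0.0258% of all probe sets were called and 3.74% had such a p. Those differences ran from -0.42 to 0.24, and the interval of 42 of 42 genes lay within 1. In olfactory tissue 0 of 42 were called and 0 had an unadjusted p under 0.05, beside 0.0419% and 5.1% of all probe sets, and the interval of 30 of 42 lay within 1.

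The immunoproteasome subunits fell in male olfactory tissue, 3 of 3, beside 13.6% of all probe sets called lower. Psmb8 ran from 7.69 through 8.70 to 9.39 on the male olfactory arrays and from 10.47 through 11.11 to 12.60 on the respiratory arrays, a change of -2.60 (SE 0.40, adjusted p = 3.36e-05). Psmb9 ran from 8.35 through 9.02 to 9.82 against 10.21 through 11.32 to 12.27, a change of -2.26 (SE 0.42, adjusted p = 0.000238). Psmb10 ran from 8.56 through 9.01 to 9.47 against 10.10 through 10.70 to 11.07, a change of -1.61 (SE 0.26, adjusted p = 5.82e-05). In each of them the groups of males did not overlap. Set beside these, Psmb5, the constitutive counterpart of Psmb8, had a change of 0.43 that was not called, and its dimmer probe sets pointed the other way. Psmb7, the counterpart of Psmb10, rose by 0.69, a call that ended in 5 of 17 settings. A link between these changes was not tested. In females the 3 changes were -2.43, -1.95 and -1.05, and the first 2 were called.

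Markers of several other cell types moved with the activators and the immunoproteasome, among them those of leukocytes, basal cells, gland cells and endothelium, and so did interferon response genes. These counts are read beside the share of all probe sets called lower, 13.6% in males and 10.3% in females. In males 5 of 5 leukocyte markers fell in olfactory tissue, with a median of -2.26, and Ptprc (CD45) fell by 2.94. Their summed signal lay between log2 11.15 and 12.78 on olfactory and between 13.97 and 15.21 on respiratory arrays, and Itgam was at or under background on every olfactory array. Of 7 interferon response genes 5 fell, with a median of -1.55, and their summed signal was 10.14 to 11.25 against 11.73 to 12.47. In females 3 of 5 and 2 of 7 fell, with summed signals of 11.07 and 12.08 against 13.28 to 14.85 for leukocytes and of 10.15 and 10.63 against 11.32 to 13.03 for interferon genes. In males 3 of 3 basal cell, 4 of 5 gland cell and 3 of 4 endothelial markers fell too. Their summed signals on male olfactory against respiratory arrays were 11.45 to 13.35 against 14.24 or more, 12.53 to 14.46 against 15.96 to 16.46, and 8.86 to 9.13 against 9.86 to 10.67, without overlap. The part of these markers in the levels of Psme1, Psme2, Psme4 and the immunoproteasome genes was not tested.

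Lists of proteins that work with the proteasome are read beside the 25.2% of all probe sets called in males. Of 12 measured cofactors 0 rose and 2 fell: Ecpas, a scaffold that holds the core and 19S particle together, by 0.54 (adjusted p = 0.0137), and Txnl1, a redox protein bound to the 19S particle, by 0.44 (adjusted p = 0.0486). The Ecpas call held with each array left out, and ended in 5 of 17 other settings, among them the fixed replicate block (-0.46, adjusted p = 0.135) and RNA integrity as a covariate (-0.63, adjusted p = 0.142); with its second brightest probe set it was -0.21. The Txnl1 call ended in 10 of 17 settings, with values down to -0.12 and an adjusted p of up to 0.693, and in 17 of 20 fits that left out 1 array. Ube3c, a ubiquitin ligase bound to the proteasome, was at -0.55 (adjusted p = 0.0739). Of 6 shuttle factors, which carry ubiquitinated proteins to the 19S particle, only Ubqln2 rose, by 1.07 (SE 0.15, adjusted p = 7.18e-06). That call ended only with the mean of its probe sets (0.33, adjusted p = 0.2) and with the second brightest (0.17, adjusted p = 0.684). Ubqln4 was at 0.50 (adjusted p = 0.0582) and Ddi2, a protease of this group, at -0.49 (adjusted p = 0.283). Ubqln4 was called in 5 of 17 settings, and without female respiratory 8, male respiratory 7 or male olfactory 3.

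Around the unfoldase p97, 2 of 9 genes rose and 1 fell in males (33.3%). Ubxn6, an adaptor, rose by 0.54 (adjusted p = 0.0352). Its call ended in 5 of 17 settings, among them rats aged 11 weeks (0.28, adjusted p = 0.281) and the fixed replicate block (0.39, adjusted p = 0.249). It also ended without male olfactory 4, 7 or 10 or male respiratory 1, 2, 4 or 8, with values of 0.47 to 0.67 over the arrays left out. Faf2 was at -0.59 (adjusted p = 0.0549), and Vcp, p97 itself, at -0.50 (adjusted p = 0.278). The other calls were Ufd1, which rose by 0.49, and Faf1, which fell by 0.40; both were named after their values were seen. Of the ubiquitin-activating enzymes Uba1 and Uba6, 0 of 2 were called, with changes of 0.32 and 0.11. Of 7 genes of the transcriptional control of the proteasome 0 were called and 3 had an unadjusted p under 0.05. Nfe2l1, the main inducer of proteasome genes, was at -0.01 (interval -0.36 to 0.33), Maff at 0.69 (adjusted p = 0.0988), Mafk at -0.49 (adjusted p = 0.0647) and Keap1 at 0.32 (adjusted p = 0.319).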

How the data were processed

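RNA of 20 samples was measured on 20 arrays. The authors deposited 1 linear intensity for each probe set and array; the submitters' processing notes name GCOS 1.0, and how it computed and scaled the signal is not stated there. Without the 2% of probe sets at each end, array means lay between 500.1 and 500.3, so the deposited scaling was kept. Of 31099 probe sets 57 controls were left out. Platform annotation gave 1 symbol to 20826 probe sets, several to 436 and none used here to 9780. An array's background was set at percentile 95 of its 27 bacterial controls.

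limma 3.58.1 in R 4.3.3 fitted 4 group means to log2(signal + 16) on all 20 arrays, with a variance trend, and p-values were adjusted by Benjamini-Hochberg over 31042 probe sets. The fit was tested on simulated data. Each array of a group came from a different animal, and the number of arrays limits precision. The labels name the animal of each array, so 7 animals pair the tissues; the deviations of paired arrays from their group means correlated by -0.184 to 0.246, over 0.1 in 4 of 7. Genes given with values were, in each role, the 4 with the largest change in males, with Psmb5, Psmb7, all activators and Psmg chaperones, up to 3 per companion list, the genes that are no subunit and those whose probe sets disagree; others are named after their values were seen. The members, lists and tests were chosen with earlier results of these data known. Alternatives covered the pseudocount, scaling, background filter, replicate block, RNA integrity, age, probe set choice and each array left out.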

Additional observations from a re-analysis of the deposited data

Results flagged for a closer look

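In 60 of 177 sets of 6 arrays (a gene in a group), 1 array lay far from the others: its gap to the nearest value was over 0.625 of the group's range, which chance gives in about 1 of 20 sets. The sets are not independent, since the same arrays enter each of them. All values are log2 signals.

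Female respiratory 8 stood above the rest of its group for 18 genes, with signals of Psma1 13.54, Psma2 14.75, Psma3 11.80, Psma4 13.20, Psma6 14.47, Psma7 13.88, Psmb1 14.58, Psmb2 13.24, Psmb3 14.28, Psmb4 14.94, Psmb7 13.01, Psmc2 13.73, Psmc6 13.68, Psmd6 13.43, Psmd8 12.05, Psmd5 10.83, Psmd10 12.06 and Psmg2 11.13. Female respiratory 8 stood below the rest of its group for 14 genes, with signals of Psmc3 10.91, Psmc5 10.49, Psmd2 10.81, Psmd3 9.60, Psmd4 10.28, Psmd7 10.69, Psmd13 9.49, Psmg1 9.38, Ube3c 8.41, Ubqln4 8.83, Ddi2 8.23, Vcp 11.38, Uba1 10.34 and Uba6 8.83.

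Male respiratory 7 stood above the rest of its group for 17 genes, with signals of Psma2 13.60, Psma7 13.50, Psmb1 13.82, Psmb2 12.95, Psmb3 13.42, Psmb4 14.43, Psmb7 12.95, Psmc2 13.57, Psmc3 12.08, Psmc6 12.03, Psmd3 10.62, Psmd6 12.38, Psmd8 12.24, Psmd5 11.15, Psmd9 10.05, Ubqln4 10.13 and Keap1 10.43. Male respiratory 7 stood below the rest of its group for 8 genes, with signals of Psmc1 10.39, Psmc5 10.82, Psmd1 9.49, Psmd7 10.39, Psmd12 10.77, Ddi2 8.27, Vcp 11.62 and Uba6 8.63.

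Male olfactory 10 stood below its group for Psmc5 10.29 and Psmd4 10.24, and male olfactory 3 for Maff 8.04. For some of these genes the values without female respiratory 8 and male respiratory 7 are given with the tissue comparison. For the others, among them Psma2, Psmc5, Ubqln4, Vcp and Uba1, they are not given. The RNA quality measures of both arrays stand with the description of those arrays.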

How the results depend on the processing

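The counts of genes called in males and females moved with several settings, and the cause was not tested. In some of these settings fewer arrays or probe sets entered. In males, genes called higher numbered 2 as reported, 4 after quantile normalization, 1 with arrays centred on their medians, 4 from the male arrays alone, 1 without the variance trend and 9 without the 2 arrays that stood apart. Genes called lower in males numbered 2 as reported, 4 in rats aged 11 weeks (where the 3 called higher were Psmd4, Psmd14 and Psmg3, and neither Psmb7 nor Psmd8), 1 with the mean of all probe sets of a gene and 1 with the second brightest. In females, genes called higher numbered 3 as reported, 7 with centred arrays, 1 from the female arrays alone, 0 without the variance trend and 13 without the 2 arrays that stood apart. Genes called lower in females numbered 2 as reported and 1 with centred arrays, the mean of probe sets or the second brightest. With the animal as a fixed replicate block, males had 0 higher and 3 lower and females 0 and 0; as a random replicate block the counts stayed at 2 and 2 and at 3 and 2. With RNA integrity as a covariate males had 0 higher and 1 lower and females 0 and 0, and the same 17 arrays without it gave 2 and 2 and 3 and 2. The median over the 42 genes moved to -0.22 in males with that covariate, and in females to 0.09 with it and to 0.69 with centred arrays. Psme1 in males reversed with the mean of its probe sets (0.069, adjusted p = 0.856) and with the second brightest (1.33, adjusted p = 0.0143). Centring moved the median of all probe sets from -0.04 to 0.06 in males and from -0.11 to 0.17 in females. Leaving out each array in turn gave 0 to 6 higher and 2 to 3 lower in males and 0 to 11 higher and 0 to 2 lower in females; the 6 and the 11 came without female respiratory 8. Higher calls in males fell to 0 without male respiratory 2, 4 or 8 or male olfactory 4 or 7. Psme1 and Psme4 were called lower in males with each array left out. No gene was called between the sexes, or in the difference between them, under any setting run. With 2 female olfactory arrays, the female tissue comparison and the comparison of the sexes in olfactory tissue were less precise than the male tissue comparison. The difference between the sexes in the tissue change had the least precision.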
